A study of Mus musculus with 6 samples.

Results

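The 10 genes of mouse MHC class II antigen presentation examined here comprise 3 class II chains (H2-Aa, H2-Ab1 and H2-Eb1), 3 genes of class II peptide loading (H2-DMa, H2-DMb1 and Cd74) and 4 regulators of class II transcription (Ciita, Rfx5, Rfxank and Rfxap). They were taken by symbol from a list and matched to the Ensembl identifiers of the gene tables. All 10 were found among the 15663 genes listed, and all 10 were among the 13454 genes tested. RNA was sequenced from the RPE-choroid, which is the retinal pigment epithelium (RPE) together with the vascular choroid beneath it, of 3 control mice and 3 mice with subretinal fibrosis (SRF). All were male C57BL/6J mice aged 8 to 10 weeks when supplied. SRF was induced by a two-stage laser protocol, in which each eye received 4 burns and every lesion was burned again after 10 days, and RNA was extracted 20 days after that. Control mice were healthy and untreated. The comparison is therefore of whole lasered tissue, burned and unburned areas together, with unlasered tissue.

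MHC class II molecules present peptides from endosomes to CD4+ T cells, and are made chiefly by dendritic cells, B cells and activated macrophages. H2-Aa and H2-Ab1 encode the alpha and beta chains of I-A. H2-Eb1 encodes the beta chain of I-E, which C57BL/6 mice do not display because their H2-Ea gene is defective. The invariant chain CD74 occupies the groove of new class II molecules, cathepsin S (Ctss) trims it in the endosome, and H2-DM, a dimer of the products of H2-DMa and H2-DMb genes, exchanges its last fragment for peptide. The RFX complex of RFX5, RFXANK and RFXAP binds the X box of class II promoters, the trimeric factor NF-Y binds the Y box, and the coactivator CIITA, which interferon gamma induces, is recruited to them and sets the level of transcription. The RFX subunits are made in most cells, whereas CIITA is restricted.

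To show the sites at which these regulators meet the other members, RefSeq promoters (GRCm38.p6, 250 bases before to 50 bases after a start) were searched on both strands. The search was for an X box core, GNNACNGAT, followed on the same strand 20 to 50 bases later by a Y box, ATTGG, so that the motifs cannot overlap. Promoters were found for 6 of the 10 members. H2-Ab1, Cd74, Ciita and Rfxap had none in the table. The arrangement was present in H2-Eb1 (chr17:34305751-34305832, forward strand) and H2-DMb1 (chr17:34153072-34153154, forward strand). Of 4 class I genes or class I pathway genes searched in the same way, H2-D1 held it (chr17:35262960-35263042, forward strand) and H2-K1, B2m and Tap1 did not. Of 4 other class II genes, H2-Eb2 held it, and H2-DMb2, H2-Oa and H2-Ob did not. The search required all 6 fixed letters of the core. H2-K1, H2-DMb2 and H2-Ob hold near matches to the core before a Y box, which an exact search does not count. In the sequences below the X box core and the Y box are in capitals, and the gap between them was 23 bases in H2-Eb1 and 24 bases in H2-DMb1 and H2-D1.
H2-Eb1: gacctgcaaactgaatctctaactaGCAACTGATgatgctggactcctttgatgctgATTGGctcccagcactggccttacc
H2-DMb1: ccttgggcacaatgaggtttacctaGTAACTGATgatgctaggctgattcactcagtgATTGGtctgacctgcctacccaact
H2-D1: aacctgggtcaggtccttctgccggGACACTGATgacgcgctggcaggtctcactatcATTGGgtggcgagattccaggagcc
The X box core alone was held by 7.82% of 32851 RefSeq promoters, the Y box alone by 37.4%, and the pair by 0.228% (75). H2-Aa, H2-DMa, Rfx5 and Rfxank did not hold the pair in these windows. The H2-DMa windows, 34122582 to 34122881 and 34125268 to 34125567, lay inside its annotated span of 34119541 to 34139101. No other start of H2-DMa was searched. The nearest match to the X box core before a Y box of H2-Aa, 24 bases away, differed at 3 of the 6 fixed letters. A match is a string of letters and not a measured binding site.

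Library depth ranged from 13667310 to 24356023 counts on listed genes, and 3 counts corresponded to between 0.123 and 0.220 CPM, the counts scaled to the library total. CPM values below are counts scaled to library size by edgeR's TMM method, and FPKM values are the authors' own, scaled to transcript length as well. The 2 libraries labelled control 1 and SRF 3 held far more photoreceptor RNA than the others, with 16 photoreceptor genes summing to 13934 and 13449 CPM against 797 to 1899 CPM in the other 4, so this difference lay across the groups. Of 11 RPE markers, the visual cycle genes Rpe65, Rlbp1, Lrat and Rgr were lower in SRF at an unadjusted p-value below 0.05 by edgeR (log2 fold changes -0.51, -0.30, -0.74 and -0.69). Lrat and Rgr were called by DESeq2 (adjusted p = 7.7e-05 and 6.9e-05 by DESeq2) but not by edgeR. Of the whole list 7 were lower and 4 higher, the latter Best1, Dct, Pmel and Mlana with 0.32, 0.21, 0.14 and 0.09, none of them called. The list, to which Rgr contributed a mean of 25329.6 CPM in control and 15691 CPM in SRF mice, summed to 48688 to 56676 CPM in control and 34451 to 43902 CPM in SRF mice. In whole tissue, more cells of a type and more RNA per cell cannot be told apart.

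Calls required an adjusted p-value below 0.05 together with an absolute log2 fold change of 0.5 or more. Rfxap, the regulator that joins RFX5 and RFXANK in the RFX complex, was about 3-fold higher in SRF, whereas the fitted folds of the class II chains were 1.14 to 1.18. Those of the other 3 regulators were 1.03 to 1.16, with a direction that turned for each of them when single mice were left out, and the interval of Ciita was wide enough to overlap that of Rfxap. By the edgeR quasi-likelihood test, 0 of the 10 members were called, as were 0% of all 13454 tested genes, although 943 genes had an unadjusted p-value below 0.05. DESeq2, the tool of the study, called 1 member, Rfxap, and 1.14% of all tested genes. An unadjusted edgeR p-value below 0.05 was reached by 1 of 10 members, again Rfxap, and by 7.01% of all genes. Of the members, 9 were higher and 1 was lower in SRF, with a median log2 fold change of 0.20, against a median of 0.00 over all tested genes, of which 50.3% were higher. The control and SRF mice did not overlap, with SRF higher, for 4 members (Rfxap, H2-Ab1, H2-DMa and Cd74) and for 6.71% of all tested genes. Members of one pathway share the same 6 libraries and are not independent.

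**Figure D1:**
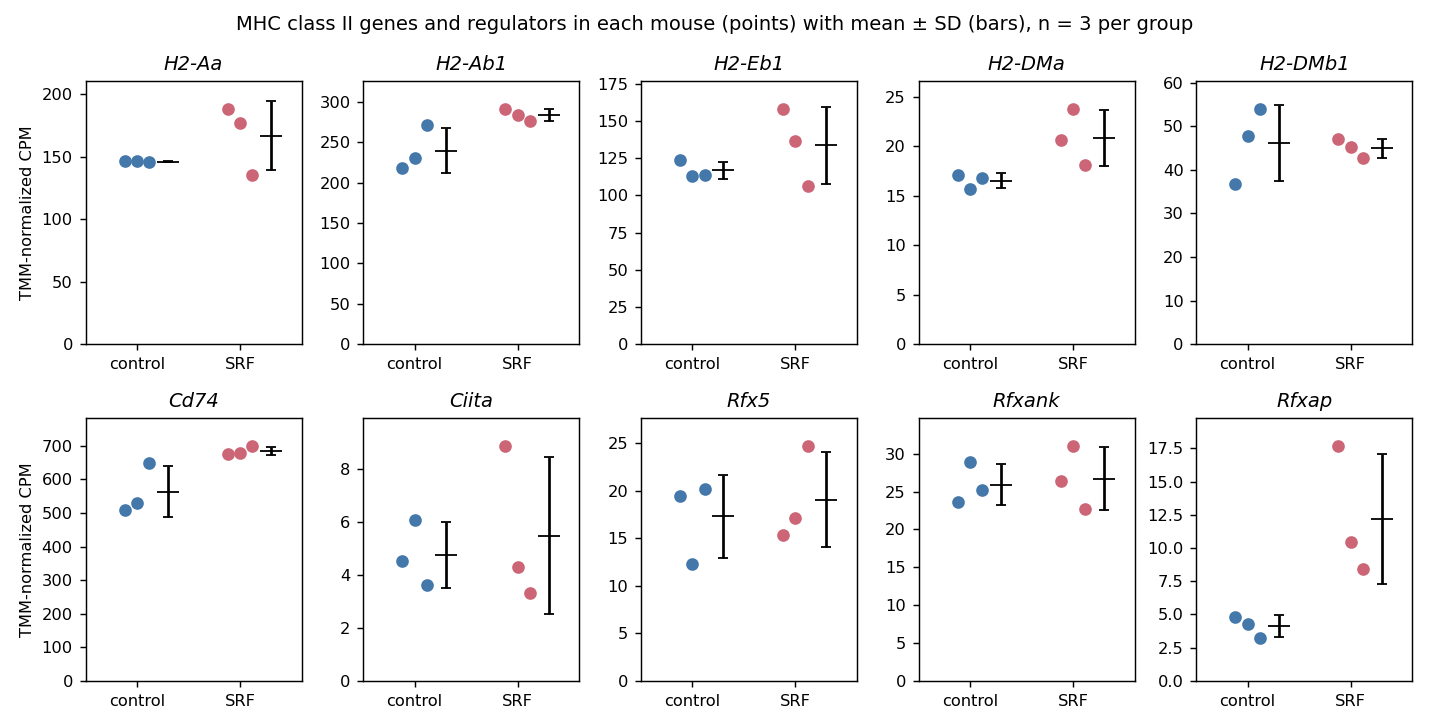
TMM-normalized CPM (vertical axis, from 0) of the 10 members in each of 3 control and 3 SRF mice (points), with the mean and SD of each group (bars). The groups are separated for Rfxap, H2-Ab1, H2-DMa and Cd74 and overlap for the other 6, and each panel has its own scale.

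Rfxap (ENSMUSG00000036615, GRCm38 chromosome 3, 54803115 to 54807791, reverse strand) was counted 65, 79 and 77 times in control mice 1, 2 and 3, and 327, 188 and 150 times in SRF mice 1, 2 and 3. As CPM these were 4.84, 4.29 and 3.21 in control and 17.7, 10.5 and 8.40 in SRF mice. The lowest SRF mouse was thus above the highest control mouse, and the SRF mice also differed more among themselves, with SRF mouse 1 well above the others. The group means were 4.11 ± 0.83 CPM for control against 12.2 ± 4.87 CPM for SRF (SD, n = 3 each), and the log2 fold change was 1.57 (standard error 0.34, 95% interval 0.77 to 2.37). In rank of fold change this was number 20 of the 13454 tested genes, and in rank of p-value number 105. Adjusted by Benjamini-Hochberg, its p-value was 0.303 by edgeR but 0.0055 by DESeq2. A two-sided exact permutation of the mice gave p = 0.1, which is the lowest value that 3 mice against 3 can reach. That value is the same for any gene whose groups do not overlap, whatever the spread. In each of these tests the mouse was the replicate. Rfxap is one of the genes the study called on these same libraries with DESeq2, so the DESeq2 call is not independent of its choice.

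The call of Rfxap by DESeq2 depended on single mice, although its direction did not. DESeq2 no longer called it without control mouse 2 (adjusted p = 0.078 by DESeq2), control mouse 3 (0.070), SRF mouse 1 (0.058) or SRF mouse 2 (0.065). It called Rfxap without control mouse 1 (adjusted p = 0.0076 by DESeq2) or SRF mouse 3 (0.00056), and in a fit that blocked on mouse number (0.0030). The edgeR log2 fold change lay between 1.20, without SRF mouse 1, and 1.78, without SRF mouse 3. In FPKM the means of Rfxap were 1.86 ± 0.37 for control against 6.35 ± 2.42 for SRF (SD, n = 3 each), a ratio of 3.41 against 2.96 in CPM. CPM on the raw library totals divided by FPKM, which follows the transcript length used for scaling, was 2.16, 2.17 and 2.17 for Rfxap in control mice 1, 2 and 3. It was 2.04, 1.70 and 2.14 in SRF mice 1, 2 and 3, so the units departed most from each other in SRF mouse 2. The longest Rfxap transcript has 51.3% GC overall but 79.5% in its richest 200 bases, a peak reached by 9.15% of listed genes. With an offset for overall GC content the log2 fold change was 1.54.

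**Figure D2:**
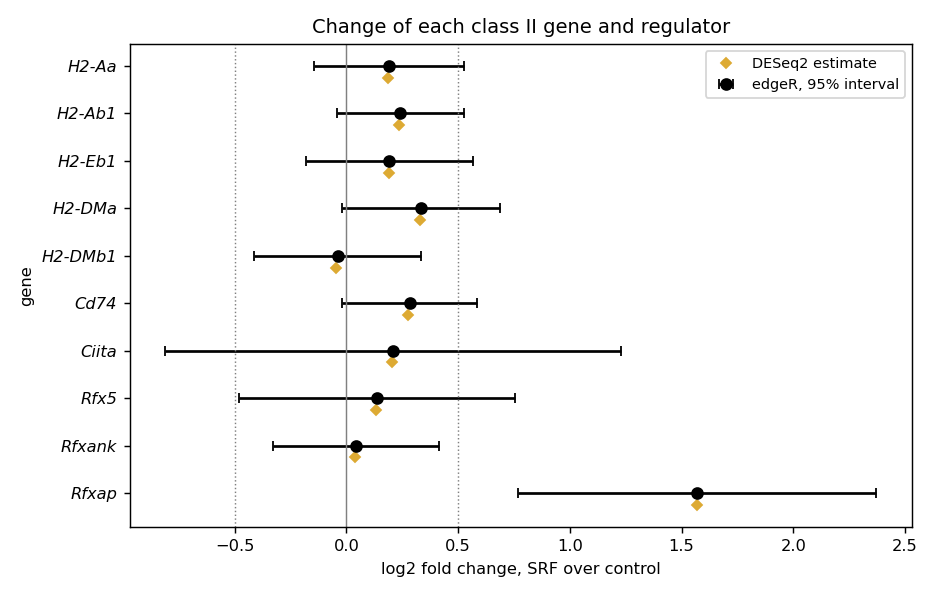
Log2 fold change of SRF over control (horizontal axis) for each member, as edgeR's estimate with its 95% interval (black) and DESeq2's estimate (yellow), with dotted lines at a log2 fold change of 0.5 either way. The interval of Rfxap runs from 0.77 to 2.37, and the intervals of the other 9 members include 0.

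The other subunits of the RFX complex were not called by either tool. Rfx5 (ENSMUSG00000005774, chromosome 3, 94954075 to 94961561, forward strand), the DNA-binding subunit, was at 19.4, 12.3 and 20.2 CPM in control mice 1, 2 and 3 and at 15.4, 17.1 and 24.7 CPM in SRF mice 1, 2 and 3. Rfxank (ENSMUSG00000036120, chromosome 8, 70130794 to 70139154, reverse strand), the ankyrin repeat subunit, was at 23.6, 28.9 and 25.2 CPM in control and at 26.4, 31.02 and 22.7 CPM in SRF mice. For both genes the groups overlapped, with the lowest value of all in control mouse 2 for Rfx5 and in SRF mouse 3 for Rfxank. The log2 fold change was 0.14 for Rfx5 (95% interval -0.48 to 0.76) and 0.04 for Rfxank (95% interval -0.33 to 0.42). The direction of Rfx5 turned without control mouse 2 (log2 fold change -0.06 in edgeR) or SRF mouse 3 (-0.09), and that of Rfxank turned without control mouse 1 (-0.02) or SRF mouse 2 (-0.08) and with the GC offset (-0.02). Rfxank overlaps Nr2c2ap on the opposite strand, with 1341 of its 3967 annotated exonic bases in common. Nr2c2ap averaged 14.8 ± 0.50 CPM in control mice against 16.3 ± 2.16 CPM in SRF mice (SD, n = 3 each), and reads from the shared bases cannot be assigned without knowing the strand.

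On the scale of transcript length, Rfxap was the lowest of the 3 RFX subunits in every control mouse, and not in every SRF mouse. Rfxap was at 2.20, 1.93 and 1.46 FPKM in control mice 1, 2 and 3, Rfx5 at 5.09, 3.50 and 4.78 FPKM and Rfxank at 11.2, 13.7 and 12.1 FPKM. In SRF mice 1, 2 and 3 Rfxap was at 8.78, 6.31 and 3.95 FPKM, Rfx5 at 4.57, 4.51 and 6.43 FPKM and Rfxank at 12.6, 15.4 and 10.6 FPKM. Rfxap was therefore above Rfx5 in SRF mice 1 and 2 and below it in SRF mouse 3. The FPKM ratio of Rfxap to Rfx5 was 0.43, 0.55 and 0.31 in control mice and 1.92, 1.40 and 0.61 in SRF mice (p = 0.1 by exact permutation of the mice, again the lowest it can give). The ratio of Rfxank to Rfx5 overlapped between the groups, at 1.65 to 3.41 in SRF and 2.19 to 3.91 in control mice.

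Ciita (ENSMUSG00000022504, chromosome 16, 10480059 to 10528418, forward strand), the coactivator, was the lowest of the 10 members in FPKM in each mouse but its CPM varied widely. Its counts were 61, 112 and 87 for control mice 1, 2 and 3, or 4.54, 6.08 and 3.63 CPM, against 164, 77 and 59 for SRF mice 1, 2 and 3, or 8.87, 4.29 and 3.30 CPM. SRF mouse 1 was the highest of all and SRF mouse 3 the lowest. The log2 fold change was 0.21 with a 95% interval from -0.81 to 1.23, and it turned to -0.32 without SRF mouse 1, so no direction can be given. Dexi overlaps Ciita on the opposite strand over 25888 bases, but the exons have 329 bases in common out of 9535 annotated exonic bases of Ciita. Dexi was at 16.5, 7.16 and 6.93 CPM in control mice 1, 2 and 3 and at 34.2, 29.6 and 29.7 CPM in SRF mice 1, 2 and 3 (log2 fold change 1.62, standard error 0.35, adjusted p = 0.302 by edgeR, 0.00082 by DESeq2). Dexi was high in all 3 SRF mice and Ciita in SRF mouse 1, and the part of shared reads in either gene was not tested.

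**Figure D3:**
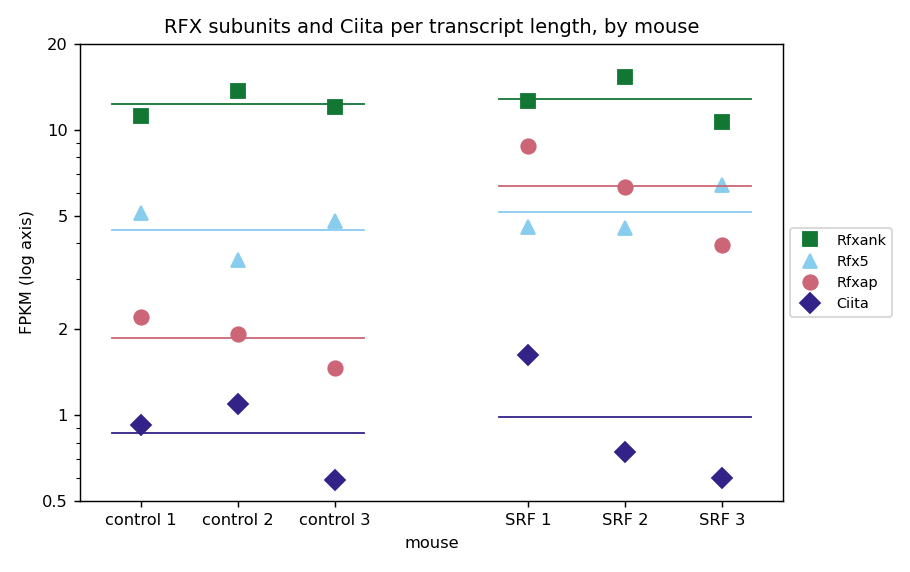
FPKM (vertical log axis) of Rfxank, Rfx5, Rfxap and Ciita in each mouse, with horizontal lines at the group means. Rfxap lies between Ciita and Rfx5 in all 3 control mice and above Rfx5 in SRF mice 1 and 2.

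The class II chains were abundant in both groups and their differences were small. H2-Ab1 (ENSMUSG00000073421, chromosome 17, 34257689 to 34269419, forward strand) was at 218, 230 and 271 CPM in control mice 1, 2 and 3 and at 291, 284 and 276 CPM in SRF mice 1, 2 and 3. The groups did not overlap, with control mouse 3 just under SRF mouse 3, and the log2 fold change was 0.24 (95% interval -0.04 to 0.53). H2-Aa (ENSMUSG00000036594, chromosome 17, 34282744 to 34287823, reverse strand) was at 146, 147 and 145 CPM in control and at 188, 177 and 136 CPM in SRF mice. Control mice were nearly identical and SRF mice spread to both sides, with SRF mouse 3 below every control mouse. H2-Eb1 (ENSMUSG00000060586, chromosome 17, 34305867 to 34316674, forward strand) had the same layout, at 124, 113 and 114 CPM in control and 158, 136 and 107 CPM in SRF mice. The log2 fold change was 0.19 for both H2-Aa (95% interval -0.15 to 0.53) and H2-Eb1 (95% interval -0.18 to 0.57). Without SRF mouse 1 it was 0.09 for H2-Aa and 0.05 for H2-Eb1, and without SRF mouse 3 it was 0.32 and 0.33. In the latter case DESeq2 gave H2-Aa an adjusted p-value of 0.031, with a fold under the threshold. The intervals of all 3 chains end just past the fold threshold, below the lower bound of the interval of Rfxap, 0.77. Adjusted p-values of the chains ran from 0.785 to 0.941 by edgeR and were 0.852 or more by DESeq2.

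Of the peptide loading genes, Cd74 (ENSMUSG00000024610, chromosome 18, 60803848 to 60812652, forward strand) was the most abundant member, with 98.9% of tested genes at or below its mean CPM. It was at 510, 530 and 649 CPM in control mice 1, 2 and 3 and at 677, 680 and 700 CPM in SRF mice 1, 2 and 3. The SRF mice were close together and just above control mouse 3, which was itself well above the other control mice. Its log2 fold change was 0.28 (95% interval -0.02 to 0.59, adjusted p = 0.749 by edgeR, 0.683 by DESeq2). Without control mouse 3 the log2 fold change was 0.40, and DESeq2 gave an adjusted p-value of 0.0080, which is under 0.05 but with a fold under the threshold. H2-DMa (ENSMUSG00000037649, chromosome 17, 34119541 to 34139101, forward strand) was at 17.1, 15.7 and 16.8 CPM in control and at 20.7, 23.7 and 18.1 CPM in SRF mice, a log2 fold change of 0.33 (95% interval -0.02 to 0.69). H2-DMa overlaps Brd2 on the opposite strand, with 360 of 3448 exonic bases in common, and Brd2 was more abundant, at 74.6 ± 14.5 CPM in control against 74.6 ± 10.96 CPM in SRF mice (SD, n = 3 each).

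H2-DMb1 (ENSMUSG00000079547, chromosome 17, 34153072 to 34160230, forward strand) was the one member with a lower mean in SRF. It was at 36.8, 47.7 and 53.9 CPM in control mice 1, 2 and 3 and at 47.0, 45.2 and 42.6 CPM in SRF mice 1, 2 and 3, all within the control range. The log2 fold change was -0.04 (95% interval -0.41 to 0.34), and it turned to 0.09 without control mouse 3 and to 0.03 with limma on log2(FPKM + 0.1). Its paralog H2-DMb2 averaged 2.25 ± 0.72 CPM in control mice against 3.76 ± 1.23 CPM in SRF mice (SD, n = 3 each). The longest transcripts of the paralogs share 500 of the 1374 stretches of 31 bases in H2-DMb1, so the split of reads between them is uncertain. The FPKM ratio of H2-DMb1 to H2-DMa, which form one dimer, was 1.71, 2.45 and 2.59 in control and 1.83, 1.55 and 1.92 in SRF mice.

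Across the 6 libraries the abundant members went in 2 pairs. H2-Ab1 and Cd74 had a Pearson r of 0.98 over the 6 libraries on log2 CPM, and H2-Aa and H2-Eb1 had 0.96, while correlations between the pairs were 0.23 to 0.51. These are descriptions of 6 libraries that share their depth and group structure. The FPKM ratio of Cd74 to H2-Ab1 stayed between 2.22 and 2.44 in all mice. The FPKM ratio of H2-Aa to H2-Ab1 was 0.72, 0.69 and 0.58 in control mice and 0.69, 0.67 and 0.53 in SRF mice, so it varied among mice within both groups alike. The longest transcripts of H2-Aa and H2-Eb1 have 46.5% and 51.8% GC and those of H2-Ab1 and Cd74 57.3% and 56.6%, and the part of GC content in this split was not tested. With the GC offset the log2 fold changes of H2-Ab1 and Cd74 were 0.14 and 0.20, and those of H2-Aa and H2-Eb1 were 0.22 and 0.15.

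Over the 6 libraries, the genes most like the mean log2 CPM of H2-Aa, H2-Ab1, H2-Eb1 and Cd74 were Smagp, Psma8, Nck2, Cebpg, Mafg, Kcnj8, Heyl, Csf2rb2, Armcx6 and Npepl1, with Pearson r from 0.9755 to 0.996. The genes most like Rfxap were Nin, Nt5dc2, Mpp6, Insl6 and Ercc8, with r from 0.985 to 0.992. With 6 points and 13454 genes to choose among, values this high are a ranking of likeness only. None of these 15 genes is a class II gene or a cell type marker of the lists used here. Nt5dc2 was at 144, 145 and 122 CPM in control mice 1, 2 and 3 and at 264, 225 and 185 CPM in SRF mice 1, 2 and 3, with SRF mouse 1 highest as for Rfxap.

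Genes that mark the cells able to carry class II were compared with it. Of 13 macrophage markers, 11 were higher in SRF, 7 of them with an unadjusted p-value below 0.05 by edgeR, with a list median log2 fold change of 0.72, and DESeq2 called Lyz2, Cd68, C1qb and C1qc. Lyz2, the lysozyme of myeloid cells, averaged 915 ± 149 CPM in control mice against 2574 ± 646 CPM in SRF mice (SD, n = 3 each), a log2 fold change of 1.49 (standard error 0.21). Cd68, a lysosomal glycoprotein of macrophages, had a log2 fold change of 1.05 (standard error 0.16), whereas Csf1r, the receptor for macrophage colony-stimulating factor, had -0.03 (standard error 0.11). The complement genes C1qa, C1qb and C1qc, made by macrophages, had log2 fold changes of 0.72, 0.90 and 0.81, and the receptors Cx3cr1 and Adgre1 had 0.87 and 0.89. Over the 13 markers the summed level was 1387 to 1812 CPM in control and 3183 to 4598 CPM in SRF mice. H2-Aa, H2-Ab1, H2-Eb1 and Cd74 together summed to 997, 1020 and 1180 CPM in control mice 1, 2 and 3 and to 1314, 1277 and 1218 CPM in SRF mice 1, 2 and 3. Class II RNA per unit of macrophage marker RNA was 0.72, 0.56 and 0.66 in control and 0.41, 0.28 and 0.36 in SRF mice. Lyz2 makes up more than any other marker of this sum. Without it the ratio was 1.55, 1.26 and 1.51 in control and 1.19, 0.99 and 1.17 in SRF mice, a narrower gap. The ratio depends on which markers are summed. Csf1r was at 146, 165 and 175 CPM in control mice and at 166, 151 and 161 CPM in SRF mice. The class II sum was higher in every SRF mouse than in any control mouse, so a lower ratio does not hold for every marker.

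**Figure D4:**
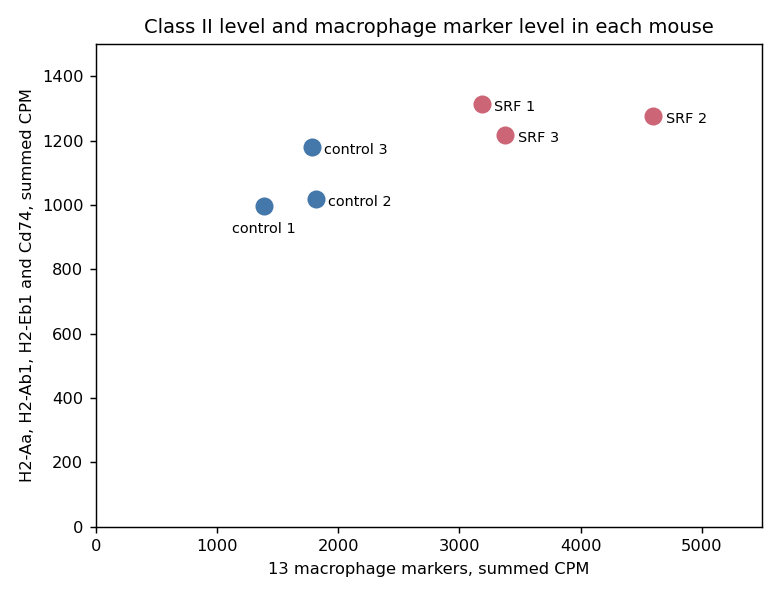
Summed CPM of H2-Aa, H2-Ab1, H2-Eb1 and Cd74 (vertical axis) against summed CPM of 13 macrophage markers (horizontal axis) in each mouse, both axes from 0. The SRF mice lie at 3183 to 4598 CPM of markers against 1387 to 1812 CPM in control mice, and at 1218 to 1314 CPM of class II against 997 to 1180 CPM.

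Markers of the other cells that carry class II were few in these libraries. Of 11 dendritic cell markers only Zbtb46, Itgax and Cd209a had enough counts to be tested. Itgax, an integrin of dendritic cells and of activated macrophages, averaged 4.21 ± 0.62 CPM in control mice against 10.2 ± 1.86 CPM in SRF mice (SD, n = 3 each), a log2 fold change of 1.27 (standard error 0.25), and DESeq2 called it. Zbtb46, a transcription factor of conventional dendritic cells, had a log2 fold change of 0.16 (standard error 0.18) and Cd209a, a lectin of dendritic cells, had 0.17 (standard error 0.21), and neither was called. Of the untested markers, Flt3, Xcr1, Clec9a and Ccr7 had between 7 and 52 counts in each library. Raw counts in control mice 1, 2 and 3 were 19, 32 and 36 for Flt3 and 38, 52 and 28 for Xcr1. In SRF mice 1, 2 and 3 they were 11, 21 and 22 for Flt3 and 18, 24 and 22 for Xcr1. The counts of Xcr1 were below those of every control mouse, whereas those of Flt3 overlapped. None of these counts were scaled for library depth. Clec9a had 14, 37 and 38 counts in control and 46, 23 and 31 in SRF mice. Ccr7 had 7, 44 and 31 counts in control and 32, 25 and 15 in SRF mice. Batf3 had 16, 10 and 18 counts in control and 37, 34 and 6 in SRF mice. Ccl22 had 2, 3 and 16 counts in control and 25, 14 and 4 in SRF mice. Clec10a had 26, 46 and 44 counts in control and 36, 59 and 45 in SRF mice. Siglech had 10, 31 and 44 counts in control and 24, 56 and 28 in SRF mice. The untested markers therefore did not share a direction. Summed over the list the level was 38.9 to 45.3 CPM in control and 45.0 to 54.8 CPM in SRF mice.

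Of 8 B cell markers 3 were tested, and Cd22, an inhibitory receptor of B cells, averaged 1.65 ± 0.10 CPM in control mice against 4.70 ± 0.62 CPM in SRF mice (SD, n = 3 each), a log2 fold change of 1.51 (standard error 0.30) called by DESeq2. The B cell list summed to 29.9 to 41.3 CPM in control and 44.3 to 48.0 CPM in SRF mice. Of 8 T cell markers 2 were tested, Cd4, the co-receptor that binds class II, at 4.38 ± 1.89 against 5.63 ± 1.74 CPM (SD, n = 3), and Lck, a T cell kinase, at 4.91 ± 0.46 against 3.24 ± 0.60 CPM (SD, n = 3). Neither was called by edgeR or DESeq2, and the T cell list summed to 17.3 to 20.7 CPM in control and 11.1 to 16.6 CPM in SRF mice. The part of any of these cells in the class II values was not tested.

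Other genes of class II processing were compared next. Of 13 genes of endosomal processing 12 were tested, 10 of them higher in SRF, with a list median of 0.21, and 3 had an unadjusted p-value below 0.05 by edgeR. Ctss, which cleaves the invariant chain, was at 172, 178 and 191 CPM in control mice 1, 2 and 3 and 447, 678 and 531 CPM in SRF mice 1, 2 and 3. Its log2 fold change was 1.61 (standard error 0.17), DESeq2 called it, and edgeR gave an adjusted p-value of 0.106. Its substrate differed far less, so that the CPM ratio of Cd74 to Ctss was 2.96, 2.98 and 3.39 in control mice and 1.51, 1.003 and 1.32 in SRF mice, with no overlap. The lysosomal proteases Lgmn (log2 fold change 0.43, standard error 0.14) and Ctsb (0.39, standard error 0.14) also had unadjusted p-values below 0.05 but were called by neither tool. H2-Ob, which with H2-Oa forms the inhibitor of H2-DM, averaged 2.67 ± 1.11 CPM in control mice against 2.46 ± 0.82 CPM in SRF mice (SD, n = 3 each), and H2-Oa had 22 to 38 counts and was not tested. H2-Eb2 was not among the listed genes. The co-stimulatory ligand Cd86 had a log2 fold change of 0.39 (standard error 0.23), and 0 of the 5 tested genes of co-stimulation had an unadjusted p-value below 0.05.

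**Figure D5:**
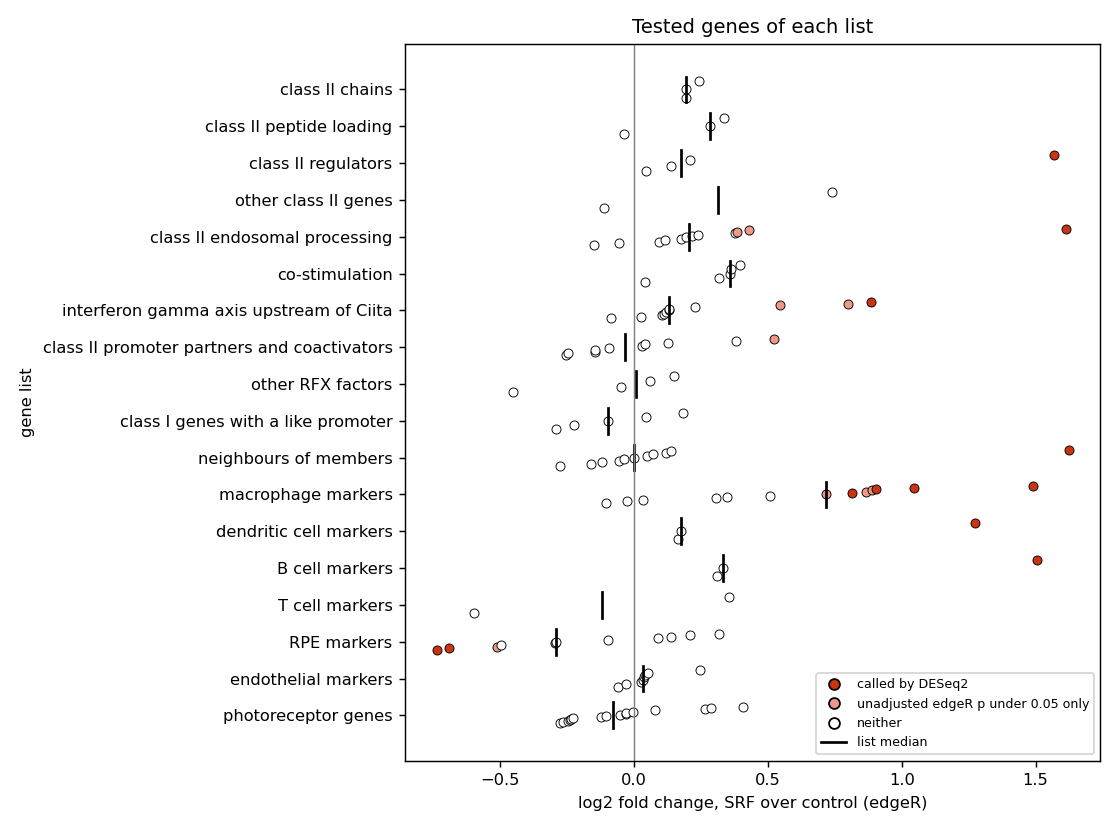
Log2 fold change of SRF over control from edgeR (horizontal axis) for the tested genes of each list, with the list median as a vertical bar and fill showing whether DESeq2 called the gene or its unadjusted edgeR p-value was under 0.05. Class II chains lie at 0.19 to 0.24, the macrophage list has a median of 0.72, and Rfxap, Ctss and Dexi lie near 1.6.

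Upstream of Ciita, 11 of 13 genes of the interferon gamma axis were tested, 10 of them higher and 1 lower in SRF, with a list median of 0.13, and Ifng itself was not among the listed genes. The groups did not overlap, with SRF higher, for 5 of them (Jak1, Jak2, Irf8, Spi1 and Socs1) and for 6.71% of all tested genes. Genes of interferon signalling had log2 fold changes of 0.13 for the kinase Jak1 (standard error 0.10), 0.23 for Jak2 (standard error 0.13), 0.12 for the receptor chain Ifngr1 (standard error 0.15) and -0.09 for the target Irf1 (standard error 0.14), the one lower gene of the list. By edgeR, 3 genes of the list had unadjusted p-values below 0.05. Spi1, the PU.1 factor of myeloid cells, was at 14.1, 14.4 and 14.2 CPM in control mice 1, 2 and 3 and at 27.7, 27.8 and 23.3 CPM in SRF mice 1, 2 and 3 (log2 fold change 0.88, standard error 0.13, called by DESeq2). Irf8, another factor of myeloid cells (log2 fold change 0.54, standard error 0.16), and Socs1, an inhibitor of cytokine signalling (0.80, standard error 0.23), were not called by either tool.

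Partners of RFX at the promoter, and its relatives, were not called by either tool. Of 10 promoter partners and coactivators all were tested, 5 higher and 5 lower, with a median of -0.03. The NF-Y subunits had log2 fold changes of -0.25 for Nfya (standard error 0.36), -0.26 for Nfyb (standard error 0.13) and 0.04 for Nfyc (standard error 0.12). Zxdc, a zinc finger protein that cooperates with CIITA, had 0.52 (standard error 0.18) with an unadjusted p-value below 0.05, and was called by neither tool. Among the other RFX factors 4 of 7 were tested, with a median of 0.01, and 0 had an unadjusted p-value below 0.05. The class I list of 5 genes had a median of -0.10, which was the value of Nlrc5. The log2 fold changes of its other members were -0.29 for B2m, -0.22 for H2-K1, 0.04 for H2-D1 and 0.18 for the peptide transporter Tap1, with B2m, the light chain of class I, at 1229 ± 210 CPM in control against 1002 ± 24.3 CPM in SRF mice (SD, n = 3 each). Nlrc5, the class I counterpart of Ciita, averaged 5.80 ± 1.79 CPM in control mice against 5.41 ± 2.33 CPM in SRF mice (SD, n = 3 each), and 0 of these 5 class I genes were called. Of the 11 tested genes in the list of neighbours of members, Dexi alone had an unadjusted p-value below 0.05, and the list median was 0.00.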

How the data were processed

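RNA-seq of RPE-choroid from 3 control and 3 SRF mice was analysed as 6 separate libraries, grouped and numbered by their titles. The authors filtered reads with FASTP, used StringTie for gene counts and deposited these raw counts. The authors also deposited FPKM values. The aligner, genome build, annotation and strandedness are not given in the sources used here. Symbols, positions and transcripts came from GENCODE M21 on GRCm38, which held 15659 of 15663 identifiers.

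The study's criteria were kept: more than 50 counts in at least 2 samples, adjusted p below 0.05, and an absolute log2 fold change of 0.5 or more. The main test was edgeR 4.0.16 in R 4.3.3 (TMM, glmQLFit with the installed legacy form, glmQLFTest, group as the only term), with Benjamini-Hochberg adjustment over all 13454 tested genes. DESeq2 1.42.0 and limma 3.58.1 were alternatives. The standard error was the fold change over the square root of its F statistic, with 95% intervals from the t distribution, unadjusted for the number of genes. The median standard error over tested genes was 0.19. Alternatives are given below, and 2 of them, peak GC and DESeq2 with the replicate block, were added after seeing the data. The photoreceptor covariate was the mean log2 CPM of 16 genes, and GC offsets removed each library's smooth trend of log ratios on GC. The tests were checked on simulated counts of 13454 genes, in which edgeR recovered 28% and DESeq2 60% of genes changed by a log2 fold of 1 in the simulated comparison of SRF with control. Of the 206 calls by DESeq2 there, 55 were genes that had not been changed, against 10 of 114 calls by edgeR. The counts were a single draw made with edgeR's own library sizes and dispersions. In the data themselves edgeR called 0 genes, so the simulation does not rank the tools on these data.

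The members, lists, tests and promoter motifs were chosen with earlier results of these data known, and Rfxap and Dexi are among the genes the study called. The genes named are the 10 members, listed genes overlapping them, genes of the lists with an unadjusted p-value below 0.05 or a call, defining markers, and the 10 and 5 genes most like the class II mean and Rfxap. Ifngr1, Irf1, Jak1, Jak2, Best1, Dct, Pmel, Mlana, H2-K1, H2-D1, Tap1, the NF-Y subunits, B2m, Nlrc5, Cd86, H2-Ob, H2-DMb2 and Nt5dc2 were named after their values had been seen. The same holds for Batf3, Ccl22, Clec10a and Siglech. Results for some genes of the lists are not reported here.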

Additional observations from a re-analysis of the deposited data

How the results depend on the processing

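The count of called members, 0 by edgeR, was 1 by DESeq2, 1 by DESeq2 with the replicate block and 0 to 1 by DESeq2 with a mouse left out (1 without control mouse 1 or SRF mouse 3). Over all genes the count of 0 became 153 by DESeq2, 201 by DESeq2 with the replicate block, 2 by limma on log2(FPKM + 0.1) or log2(FPKM + 1), and 1 under the newer quasi-likelihood form, upper quartile normalization, no filter, filterByExpr, limma-voom or the photoreceptor covariate. Leaving out a mouse gave 0 to 5 calls by edgeR. DESeq2 gave 237, 91 and 182 without control mouse 1, 2 and 3, and 153, 67 and 361 without SRF mouse 1, 2 and 3. In the companion lists the count of 0 became 11 by DESeq2 and 11 with its replicate block, 0 to 1 by edgeR with a mouse left out, and by DESeq2 11, 11 and 12 without control mouse 1, 2 and 3 and 15, 9 and 14 without SRF mouse 1, 2 and 3.

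Of 270 alternatives for the fold changes of members, 250 kept direction and side of the threshold, 16 turned direction and 4, all Rfxap by DESeq2, passed the threshold. With a mouse left out, edgeR gave -0.18 to 0.088 for H2-DMb1, -0.32 to 0.47 for Ciita, -0.093 to 0.27 for Rfx5 and -0.078 to 0.15 for Rfxank on the log2 scale. H2-DMb1 turned to 0.027 and 0.026 with limma at pseudocounts of 0.1 and 1 and to 0.088 by DESeq2 without control mouse 3. DESeq2 gave -0.32 for Ciita without SRF mouse 1, -0.058 and -0.099 for Rfx5 without control mouse 2 and SRF mouse 3, and -0.027 and -0.084 for Rfxank without control mouse 1 and SRF mouse 2. Rfxank was at -0.023 with the GC correction and -0.026 with the GC correction and replicate block. The causes were not tested. Rfxap stayed between 1.20 and 1.78 in its 27 alternatives, with adjusted p-values of 0.189 or more in the 19 edgeR and limma fits.

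Mouse numbers are shared between groups, but same-numbered mice are different animals, and their deviations correlated at -0.48, 0.49 and -0.30. With the replicate block edgeR called 0 genes, and Rfxap was at 1.51 with an adjusted p-value of 0.345. Depth limits Ciita and Rfxap most, at 59 to 164 and 65 to 327 counts a library.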
